A study of Mus musculus with 21 samples.

Results

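Diploid mouse embryonic stem (ES) cells were compared with round sperm on Affymetrix whole-genome arrays that measure the level of RNA from each gene. The comparison took the 6 arrays titled CS1-1 and R1 against the 3 arrays titled round sperm, which are 9 of the 21 arrays of the series. The other arrays, of haploid ES lines and embryonic fibroblasts, entered no test here. CS1-1 and R1 are diploid ES lines of the 129 Sv background, grown in N2B27 medium with LIF and 2i, a pair of inhibitors of the kinases MEK and GSK3. Each was represented by 3 arrays of 1 line. Round sperm had the same 129 Sv background, came fresh from testis and was sorted by FACS for haploid cells in G0/G1. No sort by cell cycle phase was stated for the diploid ES cells, and no ages of the animals were given. The study set out to compare patterns of gene expression between these kinds of cell. The 3 arrays of a group are labelled as biological replicates, with nothing on separate cultures or animals, so the p-values measure the spread between these samples, which may be technical.

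Diploid ES cells are the cultured counterpart of the early epiblast. They divide continuously, and they are held in an undifferentiated state by a network of transcription factors around Oct4, Sox2 and Nanog, which LIF and 2i help to sustain. Round sperm are germ cells that have completed meiosis and no longer divide. In the weeks that follow they build an acrosome and a tail, replace histones with transition proteins and then protamines, and shed most of their cytoplasm. Much of this programme is transcribed early in the round stage and translated later, often from genes that are used in the testis alone. On the X chromosome, genes are silenced during male meiosis and many stay low afterwards.

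Of the 18193 genes on the array, 14619 passed the filter on low values and were tested with limma. To pass the test, a gene had to differ by at least 2-fold with a p, adjusted by the Benjamini-Hochberg method, under 0.05. Levels are log2 signals after an offset of 9.73 signal units was added, and differences are diploid ES minus round sperm on that log2 scale, with the standard error (SE). A group was called near background where its mean lay at or below the mean 40th percentile of its arrays, 5.48 in diploid ES cells and 5.51 in round sperm, and the fold is then a lower bound computed with that level. Every array was scaled to the same trimmed mean, so a level is relative to the other RNA of that sample. In such bulk samples, fewer cells of a type and less RNA per cell cannot be told apart.

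Most of the measured genes differed. In total 10730 genes passed, which is 73.4% of those tested: 5961 (40.8%) were higher and 4769 (32.6%) lower in diploid ES cells. The differences were large, with 732 genes at least 32-fold higher and 1200 at least 32-fold lower. For 1875 of the higher genes round sperm was near background, and for 2333 of the lower genes diploid ES cells were. In 10351 genes (70.8%) the gene passed and the ranges over arrays did not overlap. Correlations between levels over the genes tested averaged 0.200 for the 18 pairs of an ES array and a sperm array (0.189 to 0.209), 0.960 for pairs of a CS1-1 array and an R1 array, and 0.974 within round sperm. Between the ES lines themselves, 1185 genes (8.11%) passed in CS1-1 minus R1, of which 500 (3.42%) were higher and 685 (4.69%) lower in CS1-1. Set against round sperm one line at a time, 10650 genes (72.9%) passed for CS1-1 and 10711 (73.3%) for R1, and 9862 passed in both lines in the same direction; both contrasts use the same sperm arrays.

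**Figure D1:**
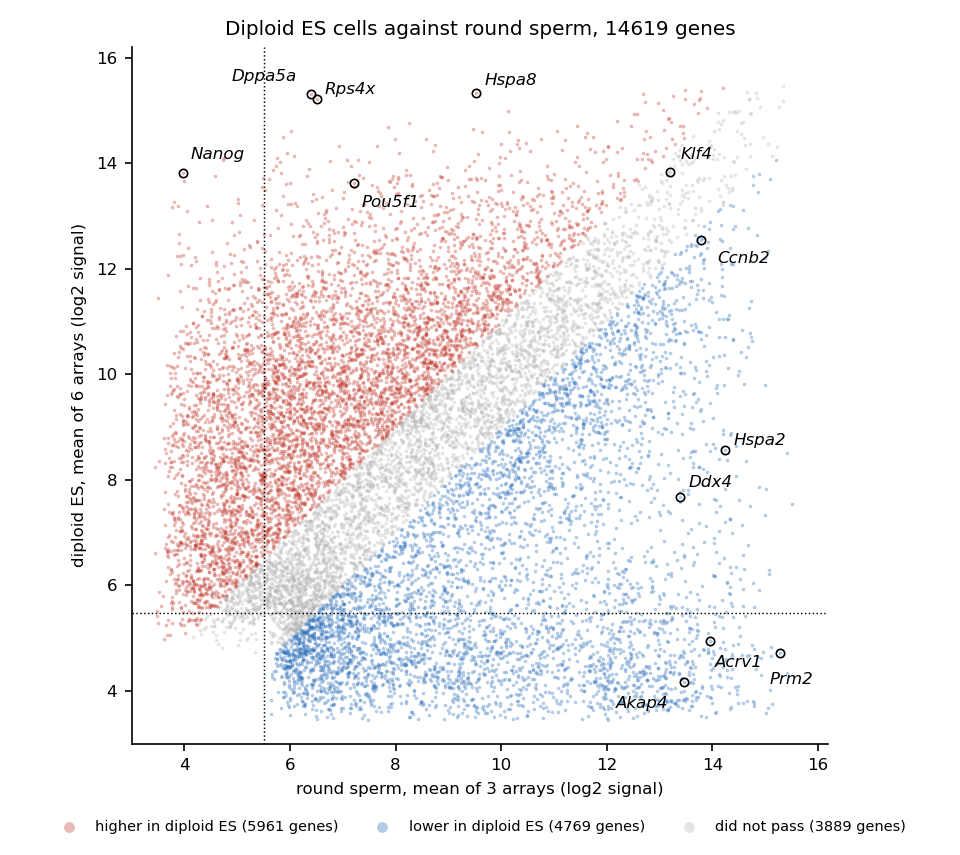
Mean level of each of the 14619 genes tested in diploid ES cells (vertical axis, 6 arrays) against round sperm (horizontal axis, 3 arrays), as log2 signals after the offset. Red points passed as higher in diploid ES (5961 genes), blue points as lower (4769 genes), grey points did not pass, and dotted lines mark the background level of each group. Genes discussed in the text are circled, with Nanog at the upper left and Prm2 at the lower right.

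Control probe sets gave a measure of RNA quality. The 3′ minus 5′ difference of the Actb control probe sets was 0.567 ± 0.0529 in diploid ES cells and 0.737 ± 0.251 in round sperm (SD, n = 6 and 3, exact 2-sided permutation p = 0.19). For the Gapdh control it was -0.238 ± 0.0423 in diploid ES cells and 0.55 ± 0.165 in round sperm (exact permutation p = 0.0238). The poly-A spike controls averaged 8.63 ± 0.0951 in diploid ES cells and 7.67 ± 0.683 in round sperm (exact permutation p = 0.0238). Probe sets listed at 0 made up 1.54% ± 0.293 on ES arrays and 0.545% ± 0.125 on sperm arrays, and the 100 brightest held 9.61% ± 0.163 of the signal on ES arrays and 8.69% ± 0.571 on sperm arrays (exact permutation p = 0.0238 for each). The part of these shifts in the gene differences was not tested.

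Genes are named here by the size of their difference. Among genes above background in both groups, Dppa5a, an RNA-binding protein of pluripotent cells, was 483-fold higher in diploid ES cells. Close to it came Rps4x (416-fold), which encodes a ribosomal protein, the small X-linked gene Bex1 (394-fold) and the actin-binding calponin Cnn3 (384-fold). In the other direction stood Spata33 (587-fold lower), the gluconeogenic enzyme Fbp1 (504-fold lower), the chaperone Hspa4l (469-fold lower), the sperm surface protein Spa17 (441-fold lower) and the axonemal dynein assembly factor Dnaaf1 (424-fold lower). Where round sperm was near background, the matricellular protein Ccn2 (at least 385-fold), the kinase Sgk1 (at least 376-fold) and Nanog (at least 318-fold) were furthest above it. Where diploid ES cells were near background, Spata4 (at least 978-fold lower), the protamine Prm2 (at least 891-fold lower), Meig1 (at least 803-fold lower), the fatty acid-binding protein Fabp9 (at least 784-fold lower) and the fibrous sheath anchor Akap3 (at least 762-fold lower) were furthest below.

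Both cell types carried the markers of their labels. All 18 round spermatid markers tested were lower in diploid ES cells, with a median difference of -8.97 (-8.06 with genes near background at their bound). Their summed level, the log2 of the summed signals, was 8.60 to 9.25 on the ES arrays and 17.9 to 18.4 on the sperm arrays. Of 12 pluripotency markers, 10 were higher in diploid ES cells and none was lower, with a summed level of 17.1 to 17.2 on ES arrays and 13.3 to 13.5 on sperm arrays. In round sperm 7 of the 12 pluripotency markers were above background, and the highest, Klf4 at 13.2, made up most of the summed level there. Nanog and Sox2 were near background in round sperm. In diploid ES cells 2 of the 18 round spermatid markers were above background, and Prm1, Prm2, Tnp1 and Tnp2 were near it.

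Markers of other cell types passed as well, to be read beside 40.8% higher and 32.6% lower of all genes tested. Of the 11 spermatocyte markers tested, 10 were lower in diploid ES cells, and their summed level was 11.6 to 12 on ES arrays and 14.7 to 14.9 on sperm arrays. Spermatocytes are the meiotic stage that precedes round sperm. Of 12 spermatogonial markers, 7 were higher in diploid ES cells and only Sohlh1 was lower. Sertoli cell markers passed in both directions, 3 higher and 3 lower of 9 (33.3% each), near the shares of all genes. Rhox5 was 56.6-fold higher in diploid ES cells and Defb19 at least 7.19-fold lower. Of 13 markers of fibroblasts and peritubular cells, 9 were higher in diploid ES cells and none was lower, with a summed level of 14.3 to 15.4 on ES arrays and 11.2 to 11.4 on sperm arrays. Collagen gene Col1a2 shows that the lines differ there: 9.88, 10.2 and 9.82 in CS1-1, 13.3, 13.3 and 13.4 in R1, and 6.20, 6.67 and 7.2 in round sperm. Of 6 primed epiblast markers, 5 were higher in diploid ES cells, among them Otx2 (at least 5.95-fold) and the methyltransferase gene Dnmt3b (24.1-fold). Markers of other early lineages passed in both directions. Trophoblast markers did so at 37.5% each way, near the shares of all genes, and mesoderm and neural markers at 14.3% higher and 28.6% lower. Of 8 primitive endoderm markers 2 were higher, the laminin gene Lama1 (at least 29.9-fold) and the receptor gene Pdgfra (at least 1.4-fold), and 4 were lower, among them the transcription factors Sox17 (13.0-fold) and Gata6 (4.82-fold, a call lost with the mean over its probe sets, -0.99). Of 8 trophoblast markers 3 were higher, among them the transcription factor Tfap2c (at least 27.9-fold), and 3 were lower. Of 7 mesoderm and neural markers the tubulin gene Tubb3 was higher (5.7-fold) and 2 were lower, among them the mesoderm factor Mesp1 (at least 155-fold). The part of these other cell types in the gene differences was not tested.

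**Figure D2:**
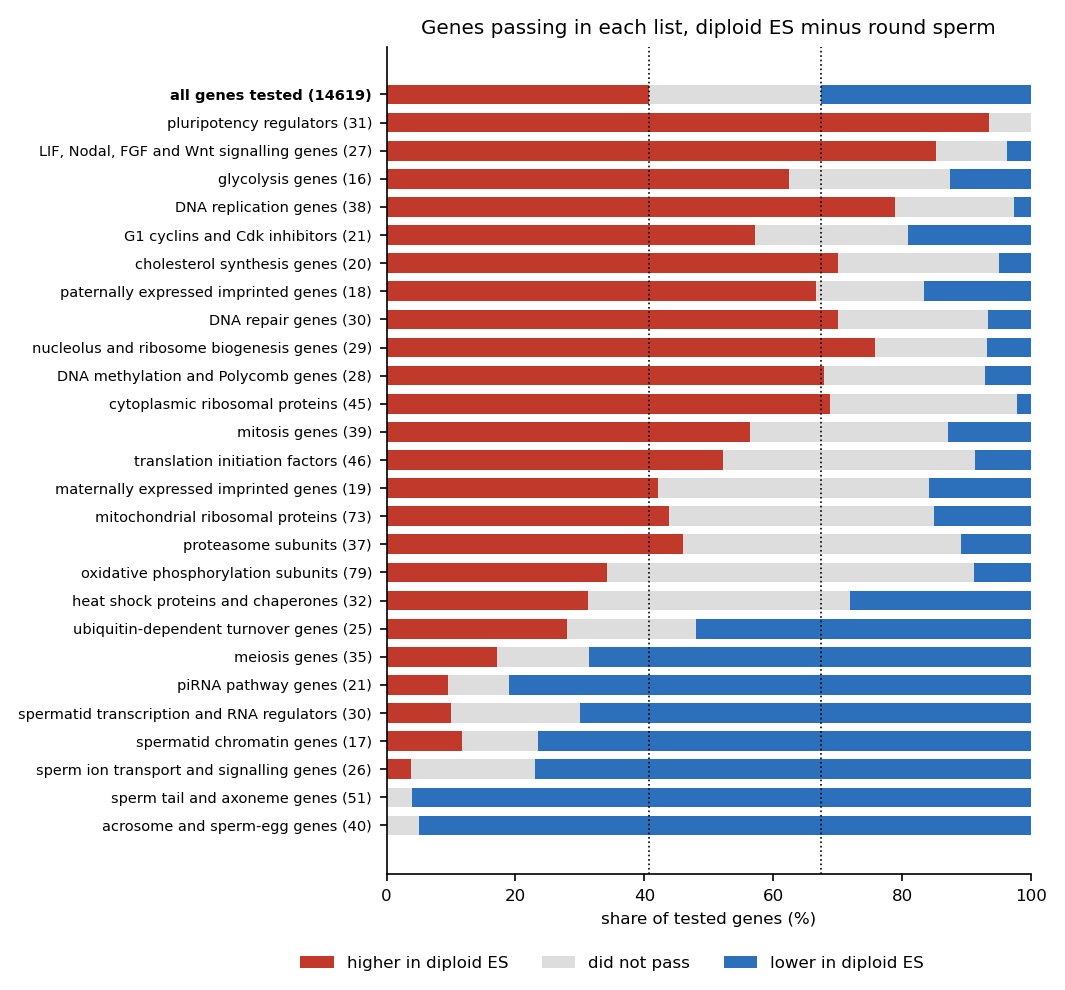
Share of the tested genes in each list that were higher (red), lower (blue) or did not pass (grey) in diploid ES minus round sperm, with the number tested in brackets and lists ordered by their median difference. The top bar and the dotted lines give all 14619 genes (40.8% higher, 32.6% lower). Pluripotency regulators lie at one end with 29 of 31 higher, and acrosome genes at the other with 38 of 40 lower.

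Pluripotency regulators were higher in diploid ES cells almost without exception. Of 32 listed genes 31 were tested, 29 of them were higher and none was lower, against 40.8% higher among all genes tested. The median difference was 6.33 (5.77 with genes near background at their bound), beside 0.33 for all genes (0.23 at the bound). Pou5f1, which encodes Oct4, lay at 13.6, 13.6 and 13.6 (lowest, median and highest of 6 arrays) in diploid ES cells, against 6.95, 7.34 and 7.36 in round sperm. It was 85.0-fold higher, a difference of 6.41 ± 0.09 (SE; limma adjusted p = 4.83e-13), and its groups lay far apart. Nanog had 13.8, 13.8 and 13.9 in diploid ES cells, against 3.62, 3.82 and 4.46 in round sperm, where all 3 arrays were below background (difference 9.85 ± 0.15, adjusted p = 8.15e-13). Sox2 had 13.1, 13.2 and 13.3 in diploid ES cells, against 3.42, 4.52 and 3.67 in round sperm (at least 206-fold, difference 9.32 ± 0.19). Others with small errors were Tfcp2l1, a transcription factor downstream of LIF (80.6-fold), L1td1, an RNA-binding protein derived from a LINE-1 element (183-fold), and Fbxo15, an F-box protein and early Oct4 target (29.3-fold). The Nodal co-receptor gene Tdgf1 (at least 285-fold) and the zinc finger factor Sall4 (at least 204-fold) were near background in round sperm.

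Of this list, 2 members did not pass, of which Utf1 was named after its values were seen. Klf4, a Krüppel-like factor of the naive network that mouse round spermatids are also known to express, lay at 13.7, 13.8 and 13.9 in diploid ES cells, against 13.4, 13.1 and 13.1 in round sperm. The groups did not overlap, but the difference of 0.62 ± 0.06 was 1.54-fold (adjusted p = 1.23e-06), under the fold required, and the other Klf4 probe set gave 0.64 ± 0.05. Utf1, a chromatin-bound factor of ES cells, had 7.79, 8.58 and 8.74 in diploid ES cells, against 8.59, 8.72 and 8.35 in round sperm, and these ranges overlapped (difference -0.12 ± 0.20, adjusted p = 0.572). Myc, a driver of growth and proliferation, was at least 4.05-fold higher in diploid ES cells.

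The proximal promoters of Nanog and Sox2 are shown because these genes were furthest above a near-background level in round sperm among the core factors. The sequences are the 250 bases before the RefSeq start, from RefSeq on GRCm38.p6, written along the gene, with capitals at the 7-letter core TTTGCAT (or its reverse complement) of the octamer that Oct4 recognises. The Nanog window is chr6:122707239-122707488 on the plus strand, and the Sox2 window is chr3:34649745-34649994 on the plus strand.
Nanog: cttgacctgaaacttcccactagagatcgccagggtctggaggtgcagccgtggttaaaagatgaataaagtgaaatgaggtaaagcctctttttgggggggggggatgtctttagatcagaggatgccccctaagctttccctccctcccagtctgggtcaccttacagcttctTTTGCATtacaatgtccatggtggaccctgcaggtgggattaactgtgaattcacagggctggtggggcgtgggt
Sox2: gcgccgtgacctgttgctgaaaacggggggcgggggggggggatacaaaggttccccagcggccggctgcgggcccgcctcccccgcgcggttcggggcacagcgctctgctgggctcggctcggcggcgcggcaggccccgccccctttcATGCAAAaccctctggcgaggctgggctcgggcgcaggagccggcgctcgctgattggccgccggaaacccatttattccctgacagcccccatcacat
The core began 75 bases before the Nanog start on the gene strand and 99 bases before the Sox2 start on the opposite strand. The 2 promoters differ in CpG content: over 300 bases (250 before to 50 after the start), the ratio of observed to expected CpG was 0.19 at Nanog and 0.82 at Sox2. The core on either strand was in 3.45% of the promoters of tested genes and in 3.47% of those of the genes higher in diploid ES cells, so a match describes these windows only.

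**Figure D3:**
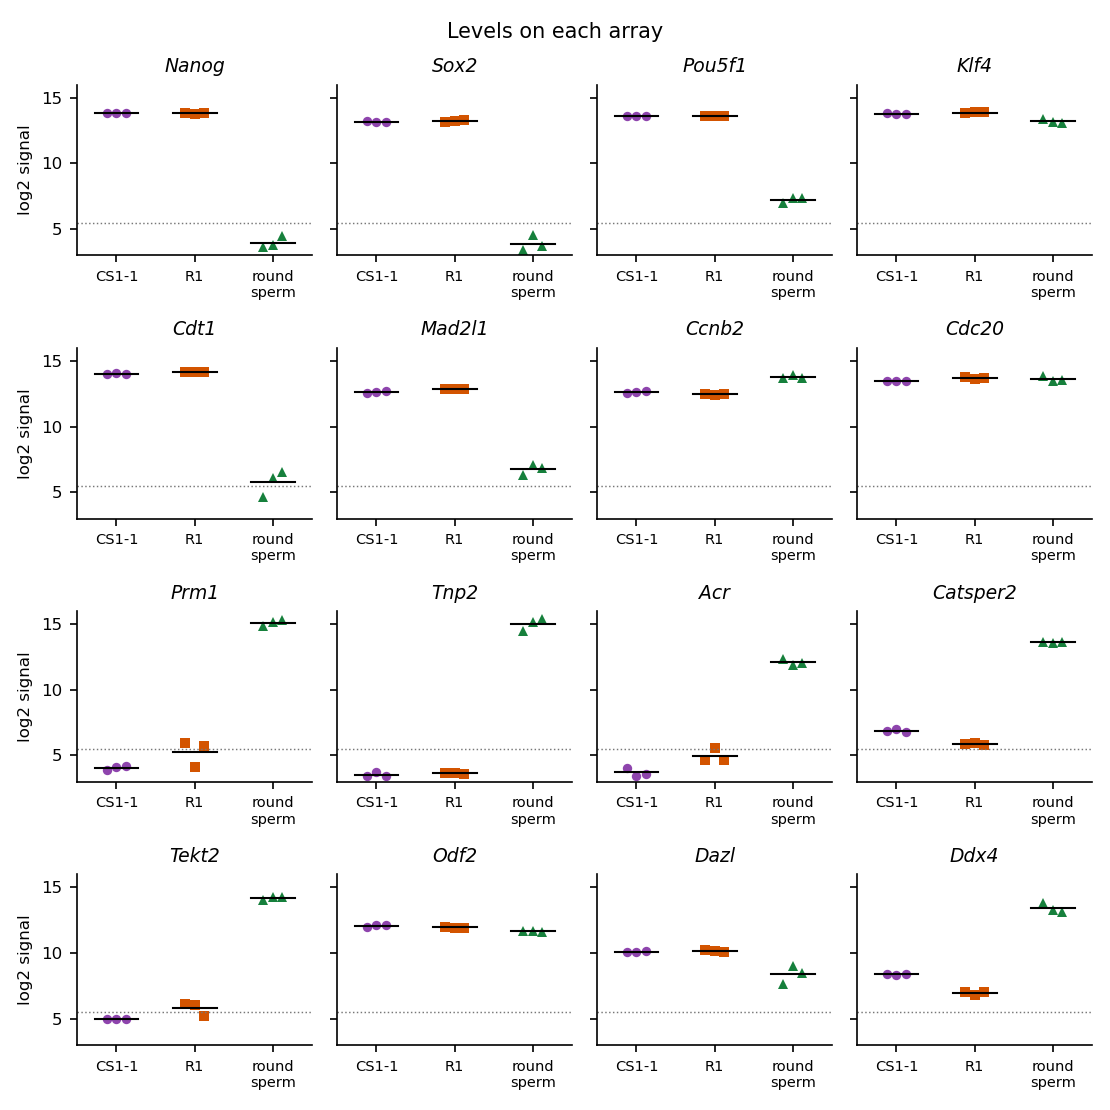
Level of 16 genes on each array (log2 signal after the offset), with CS1-1 (3 arrays) and R1 (3 arrays) left of round sperm (3 arrays); bars are group means and the dotted line is the background level. Nanog, Sox2, Pou5f1, Cdt1 and Mad2l1 are high in both ES lines, Prm1, Tnp2, Acr, Catsper2, Tekt2 and Ddx4 are high in round sperm, and Klf4, Cdc20 and Odf2 differ by less than 2-fold.

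Signalling genes of the LIF, Nodal, FGF and Wnt pathways were mostly higher in diploid ES cells too. Of 27 tested, 23 were higher and 1 was lower, with a median difference of 4.39 (4.06 at the bound). Named by smallest adjusted p, they include Etv5, an ETS factor downstream of FGF signalling (141-fold), and Spry2, a feedback inhibitor of receptor tyrosine kinases (at least 83.6-fold). They also include Sp5, a Wnt target (at least 27.0-fold), Tcf7l1, a repressor of Wnt targets (35.4-fold), Id3, a target of BMP signalling (25.4-fold), and the LIF receptor gene Lifr (at least 30.9-fold). The lower gene was Lef1, a nuclear partner of beta-catenin, at 5.51, 7.31 and 8.64 in diploid ES cells and 10.0, 9.08 and 9.44 in round sperm, 4.63-fold lower without overlap.

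Enzymes and partners of DNA methylation and Polycomb repression were higher in 19 of 28 and lower in 2, with a median difference of 1.73 (1.57 at the bound). Tet1 and Tet2, which oxidise methylated cytosine, were at least 118-fold and 78.8-fold higher. The de novo methyltransferase gene Dnmt3b was 24.1-fold higher, and the accessory subunits of Polycomb repressive complex 2, Jarid2 and Mtf2, were 15.8-fold and 9.83-fold higher. Phc2 (3.06-fold) and Ring1 (2.75-fold), components of Polycomb repressive complex 1, were lower in diploid ES cells.

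Genes of DNA replication were mostly higher in diploid ES cells. Of 38 replication genes, 30 were higher in diploid ES cells and 1 was lower, with a median difference of 3.05. Cdt1, which licenses replication origins, lay at 14.0, 14.1 and 14.2 in diploid ES cells, against 4.67, 6.10 and 6.52 in round sperm. Its groups were apart by 8.33 ± 0.31, or 322-fold (adjusted p = 4.66e-10), the highest fold among these genes above background in both groups. The helicase subunits Mcm4 (92.7-fold), Mcm5 (51.0-fold) and Mcm6 (35.4-fold) and the replication initiation factor Mcm10 (38.2-fold) were higher. So were the primase Prim1 (22.2-fold) and the polymerase delta subunit Pold1 (at least 42.2-fold). Rfc2, a subunit of the clamp loader, was the lower member (2.90-fold).

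Of 39 mitosis genes, 22 (56.4%) were higher in diploid ES cells, 5 (12.8%) were lower and 12 did not pass. Among all genes tested 40.8% were higher and 32.6% were lower. The median difference of the mitosis genes was 1.42. Mad2l1, of the spindle checkpoint, had 12.6, 12.8 and 12.9 in diploid ES cells, against 6.29, 7.07 and 6.86 in round sperm (64.9-fold, difference 6.02 ± 0.14, adjusted p = 1.26e-11). The spindle motor Kif11 (21.5-fold), the Cdk-binding Cks2 (8.52-fold), cyclin A2, Ccna2 (8.27-fold), the ubiquitin-conjugating Ube2c (4.29-fold) and the topoisomerase Top2a (3.26-fold) were higher as well. The 5 lower genes act at entry into mitosis or at centrosomes and kinetochores. Ccnb2, cyclin B2, had 12.4, 12.5 and 12.7 in diploid ES cells, against 13.7, 13.9 and 13.7 in round sperm, which had been sorted as G0/G1 cells. It was 2.36-fold lower in diploid ES cells without overlap (difference -1.24 ± 0.06, adjusted p = 4.84e-09). The kinase genes Plk1 (2.33-fold), Nek2 (2.58-fold) and Aurka (2.71-fold) and the kinetochore gene Nuf2 (3.11-fold) were also lower in diploid ES cells, though with the mean over probe sets Aurka had a difference of 0.91 and Nek2 one of -0.76 that did not pass. Cdc20, the activator of the anaphase-promoting complex, was picked after its values were seen: it had 13.5, 13.6 and 13.7 in diploid ES cells and 13.8, 13.4 and 13.6 in round sperm, a difference of -0.02 ± 0.07 (adjusted p = 0.81).

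G1 regulators passed in both directions, 12 higher (57.1%) and 4 lower (19%) of 21, beside 40.8% higher and 32.6% lower of all genes tested. Cdk4 (54.3-fold), Cdk2 (10.7-fold) and cyclin D1, Ccnd1 (39.4-fold), were higher in diploid ES cells. So was the inhibitor gene Cdkn1a (39.6-fold), while the inhibitor genes Cdkn2c (23.2-fold), Cdkn1c (11.6-fold) and Cdkn2d (2.97-fold) and the pocket protein gene Rbl2 (6.21-fold) were lower. Of 30 DNA repair genes, 21 (70%) were higher and 2 (6.67%) were lower. Msh6, of mismatch repair (28.8-fold), the checkpoint kinase Chek2 (31.9-fold) and Rad54l, of homologous recombination (15.5-fold), were higher. The checkpoint kinase Atr (2.72-fold) and the recombination factor Rad51c (2.18-fold) were lower in diploid ES cells. Neither call held throughout: Atr had a difference of -0.25 with the mean over its probe sets, and Rad51c of -0.92 without R1.

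Genes that repackage sperm chromatin were lower in diploid ES cells, in most cases down to background. Of 23 listed, 17 were tested, 13 were lower and 2 were higher, against 32.6% lower among all genes tested, with a median difference of -5.68. Prm1, a protamine, had 3.88, 4.17 and 5.99 in diploid ES cells, against 14.9, 15.2 and 15.3 in round sperm (at least 733-fold lower, difference -10.45 ± 0.34, adjusted p = 1.72e-10). Tnp2, a transition protein, had 3.42, 3.62 and 3.72 in diploid ES cells, against 14.5, 15.2 and 15.4 in round sperm (at least 743-fold lower, adjusted p = 2.03e-12). Round sperm thus stood near the top of the array's range for both, and the ES means lay near background. Prm2 had 3.67, 4.74 and 5.6 in diploid ES cells, against 14.8, 15.5 and 15.6 in round sperm. The spermatid linker histone gene Hils1 (at least 638-fold), Prm3 (at least 315-fold) and the histone variant gene H2al2a (at least 232-fold) were lower as well. The higher members were Rnf8, a ubiquitin ligase of damaged and of meiotic chromatin (8.64-fold), and Pygo2, a reader of methylated histone H3 (2.38-fold, 0.82 on the log2 scale and not past the test after quantile normalization).

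Tnp1, the other transition protein, was represented here by a probe set with a difference of -5.64 ± 0.38 (at least 20.4-fold lower). Its second probe set lay at 3.63 ± 0.15 in diploid ES cells and 15.3 ± 0.34 in round sperm (SD, n = 6 and 3), a difference of -11.65 ± 0.18 and at least 893-fold lower (adjusted p = 9.04e-13). The 2 probe sets gave 1 direction, and the rule of 1 probe set per gene took the dimmer of them in round sperm.

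Prm1 and Tnp2 lie close together on chromosome 16. Their upstream sequences are shown because both genes were near the top of the scale in round sperm and near background in diploid ES cells. Both are on the minus strand, Prm1 at chr16:10796824-10797073 and Tnp2 at chr16:10788656-10788905 (RefSeq, GRCm38.p6, 250 bases before the start, written along the gene).
Prm1: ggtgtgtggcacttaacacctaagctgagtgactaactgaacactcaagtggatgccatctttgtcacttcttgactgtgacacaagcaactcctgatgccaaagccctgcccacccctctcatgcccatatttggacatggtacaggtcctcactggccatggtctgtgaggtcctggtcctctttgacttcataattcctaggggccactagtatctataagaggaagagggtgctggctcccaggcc
Tnp2: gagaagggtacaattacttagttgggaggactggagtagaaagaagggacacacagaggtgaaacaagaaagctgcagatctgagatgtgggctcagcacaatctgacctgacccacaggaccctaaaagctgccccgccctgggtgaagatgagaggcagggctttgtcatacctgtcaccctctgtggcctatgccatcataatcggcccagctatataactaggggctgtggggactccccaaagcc
None of the octamer core TTTGCAT, the CRE core TGACGT or the RFX letters GTTGCC was in either window on either strand. Both windows are poor in CpG, with observed to expected ratios of 0.05 at Prm1 and 0.17 at Tnp2, beside a median of 0.726 over the promoters of 11773 of the 14619 tested genes.

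The acrosome and the proteins that meet the egg had the lowest median of the lists other than markers, of which round spermatid markers lay lower. Of 41 listed genes 40 were tested, 38 were lower in diploid ES cells and none was higher, with a median difference of -8.0 (-6.91 at the bound). In diploid ES cells only 12 of the 40 were above background, and in round sperm all 40 were. Acr, the acrosomal protease acrosin, had 3.45, 4.35 and 5.54 in diploid ES cells, against 12.3, 11.9 and 12.1 in round sperm (at least 99.0-fold lower, difference -7.78 ± 0.25). Acrv1, a protein of the acrosomal matrix, had 3.81, 4.98 and 5.57 in diploid ES cells, against 13.8, 14.1 and 14.0 in round sperm (at least 353-fold lower). All sperm values lay far above the ES range in both genes. Izumo1, which binds the egg receptor Juno (at least 134-fold), Spaca1 (at least 368-fold) and Spaca3 (at least 278-fold), both proteins of the acrosomal membrane, and Spesp1, of the equatorial segment (299-fold), were lower. The testis calnexin Clgn, a chaperone for sperm surface proteins, was 53.1-fold lower. The 2 members that did not pass, named after their values were seen, were Gopc (0.56 ± 0.21) and Agfg1 (-0.13 ± 0.10), which work in vesicle traffic and are used beyond the testis. Without probe sets that match several transcripts or genes, Gopc passed as higher in diploid ES cells (1.32).

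Of 58 listed genes of the sperm tail and axoneme, 51 were tested, 49 were lower in diploid ES cells and none was higher, with a median difference of -7.04 (-6.58 at the bound). The ranges of ES and sperm arrays were apart in all 51, beside 81% of all genes tested. Tekt2, a tektin of the doublet microtubules, had 4.97, 5.12 and 6.12 in diploid ES cells, against 14.0, 14.2 and 14.3 in round sperm (at least 368-fold lower, difference -8.79 ± 0.19, adjusted p = 8.96e-12). Akap4, the main protein of the fibrous sheath, had 3.59, 3.97 and 5.26 in diploid ES cells, against 13.2, 13.5 and 13.7 in round sperm (at least 254-fold lower). Odf1, of the outer dense fibres, had 4.13, 4.91 and 6.20 in diploid ES cells, against 12.4, 11.5 and 12.4 in round sperm (at least 90.5-fold lower). In each of these genes the lowest sperm array was several log2 units above the highest ES array. Not all members were at background in diploid ES cells. Dnah8, an axonemal dynein heavy chain, had 9.47, 10.3 and 11.1 in diploid ES cells, against 14.5, 14.7 and 14.7 in round sperm (19.9-fold lower). The radial spoke gene Rsph1 (118-fold), the tektin Tekt1 (95.6-fold) and the calcium-binding Cabyr (214-fold) were lower with ES means above background. The 2 that did not pass, again named after their values were seen, were Hook1, a microtubule linker (-0.69 ± 0.08, or -1.26 and past the test with the mean over its probe sets), and Odf2, of the outer dense fibres and of the centrosomes of somatic cells. Odf2 had 11.9, 12 and 12.1 in diploid ES cells and 11.7, 11.7 and 11.6 in round sperm, a difference of 0.37 ± 0.05 (1.30-fold). With the probe set that was brightest on the average of the 2 kinds of cell, Odf2 had a difference of -5.48 instead, so its value depends on the probe set.

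The Tekt2 upstream window is shown because RFX factors, which bind the letters GTTGCC within their sites, are known regulators of ciliary genes. It is chr4:126325689-126325938 on the minus strand (RefSeq, GRCm38.p6), with GTTGCC or its reverse complement GGCAAC in capitals.
Tekt2: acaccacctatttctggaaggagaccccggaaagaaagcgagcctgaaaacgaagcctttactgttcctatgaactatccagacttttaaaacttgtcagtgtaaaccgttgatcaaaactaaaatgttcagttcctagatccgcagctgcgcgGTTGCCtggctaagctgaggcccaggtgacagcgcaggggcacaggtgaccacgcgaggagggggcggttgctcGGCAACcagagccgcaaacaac
The letters began 96 bases before the start on the gene strand and 22 bases before it on the opposite strand. They were in the promoters of 13 of the 48 tail genes with a RefSeq promoter (27.1%), and in 13.3% of the promoters of all tested genes, 11% of genes higher and 16.5% of genes lower in diploid ES cells, and 21.7% of those at least 32-fold lower. These shares are descriptions, and a match is not a binding site.

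Sperm ion channels and signalling proteins were lower in 20 of 26 and higher in 1, with a median difference of -6.55 (-5.94 at the bound). Catsper2, of the sperm calcium channel, had 5.79, 6.36 and 7.01 in diploid ES cells, against 13.7, 13.6 and 13.7 in round sperm (152-fold lower, difference -7.25 ± 0.10). The CatSper auxiliary subunit gene Catsperd (18.7-fold), the sperm potassium channel gene Kcnu1 (41.6-fold), the testis kinase gene Tssk2 (at least 381-fold) and the kinase gene Stk33 (at least 197-fold) were lower. Hvcn1, the voltage-gated proton channel, went the other way: it had 8.51, 8.81 and 9.12 in diploid ES cells, against 4.31, 4.13 and 4.03 in round sperm, at least 9.90-fold higher.

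Regulators of transcription and RNA in spermatids were lower in 21 of 30, higher in 3 and not past the test in 6, with a median difference of -4.09 (-3.58 at the bound). Tbpl1, a relative of the TATA-binding protein needed in mouse spermatids, had 9.57, 10.1 and 10.5 in diploid ES cells, against 14.4, 14.5 and 14.6 in round sperm (21.8-fold lower), though with the mean over its probe sets the difference was -0.61 and did not pass. The transcription factor Tcfl5 (44.6-fold), the RNA helicase Ddx25 (167-fold), Fhl5, a coactivator of CREM (at least 296-fold), and Zmynd15, a repressor needed in mouse spermatids (at least 114-fold), were lower. Higher in diploid ES cells were the RNA-binding Tsn (5.12-fold), the polyadenylation factor Cstf2t (2.04-fold, under 2-fold in several alternatives, among them without the second or the third round sperm array) and Dazl. Dazl, a germ cell RNA-binding protein, had 10.1, 10.1 and 10.2 in diploid ES cells, against 7.67, 9.02 and 8.51 in round sperm, 3.31-fold higher without overlap (difference 1.73 ± 0.23, adjusted p = 2.49e-05).

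Crem, the cAMP-responsive activator that turns on many spermatid genes, depended on the probe set. The set that represents the gene here gave a difference of -0.43 ± 0.15 and did not pass. Another lay at 4.91 ± 0.47 in diploid ES cells and 13.3 ± 0.08 in round sperm, at least 220-fold lower (-8.35 ± 0.25, adjusted p = 8.48e-11). The remaining sets gave -1.14 ± 0.21 and 1.60 ± 0.28. The gene has several promoters and transcript forms, and these probe sets did not give 1 direction.

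Meiosis genes were lower in 24 of 35 and higher in 6, with a median difference of -2.12 (-1.99 at the bound). The synaptonemal complex gene Syce1 (43.6-fold), the germ cell cyclin Ccna1 (at least 158-fold), the meiotic cohesin subunit Stag3 (7.12-fold), the recombination factor Tex15 (8.38-fold) and Psmc3ip, a recombination mediator (7.94-fold), were lower in diploid ES cells. These genes act before the round stage, and spermatocyte markers were well above background in round sperm, as given above. The 6 higher genes were Trip13, an ATPase of both meiotic and mitotic checkpoints (30.9-fold), Mnd1, a partner of Psmc3ip (at least 13.3-fold), and Stra8, which starts meiosis on retinoic acid (4.07-fold). The others were Mei4, of break formation (at least 1.81-fold), the RNA-binding Ythdc2 (2.37-fold) and the mismatch repair gene Mlh3 (2.31-fold). After quantile normalization Ythdc2 (0.63) and Mlh3 (0.59) did not pass.

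The piRNA pathway, which guards the germline against transposons, had 17 of 21 genes lower in diploid ES cells and 2 higher, with a median difference of -2.88 (-2.78 at the bound). Ddx4, the germ cell helicase Vasa, had 6.82, 7.70 and 8.42 in diploid ES cells, against 13.8, 13.2 and 13.1 in round sperm (52.8-fold lower, difference -5.72 ± 0.14). Mael (313-fold), Gtsf1 (77.7-fold) and Tdrd7 (109-fold), all cofactors of the pathway, were lower, as was Piwil1, a PIWI protein that binds piRNAs (16.9-fold). Tex19.1, expressed in both ES cells and germ cells (38.8-fold), and Pnldc1, the nuclease that trims piRNA ends (3.51-fold), were higher in diploid ES cells.

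Many proteins have a general gene and a second gene used mainly in the testis. Of 39 pairs chosen here, some join looser relatives of a family, such as Actb with Actl7b, Klhl9 with Klhl10 or Psma4 with Psma8. The second gene of each pair is called the testis gene. Both genes were tested in 32 pairs. In 19 of the 32 the general gene was higher and the testis gene lower in diploid ES cells, the testis gene was lower in 29, and the general gene was higher in 22. Among all genes tested, 40.8% were higher and 32.6% were lower. Levels of different probe sets are not set against each other, so each gene is described by its own difference.

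**Figure D4:**
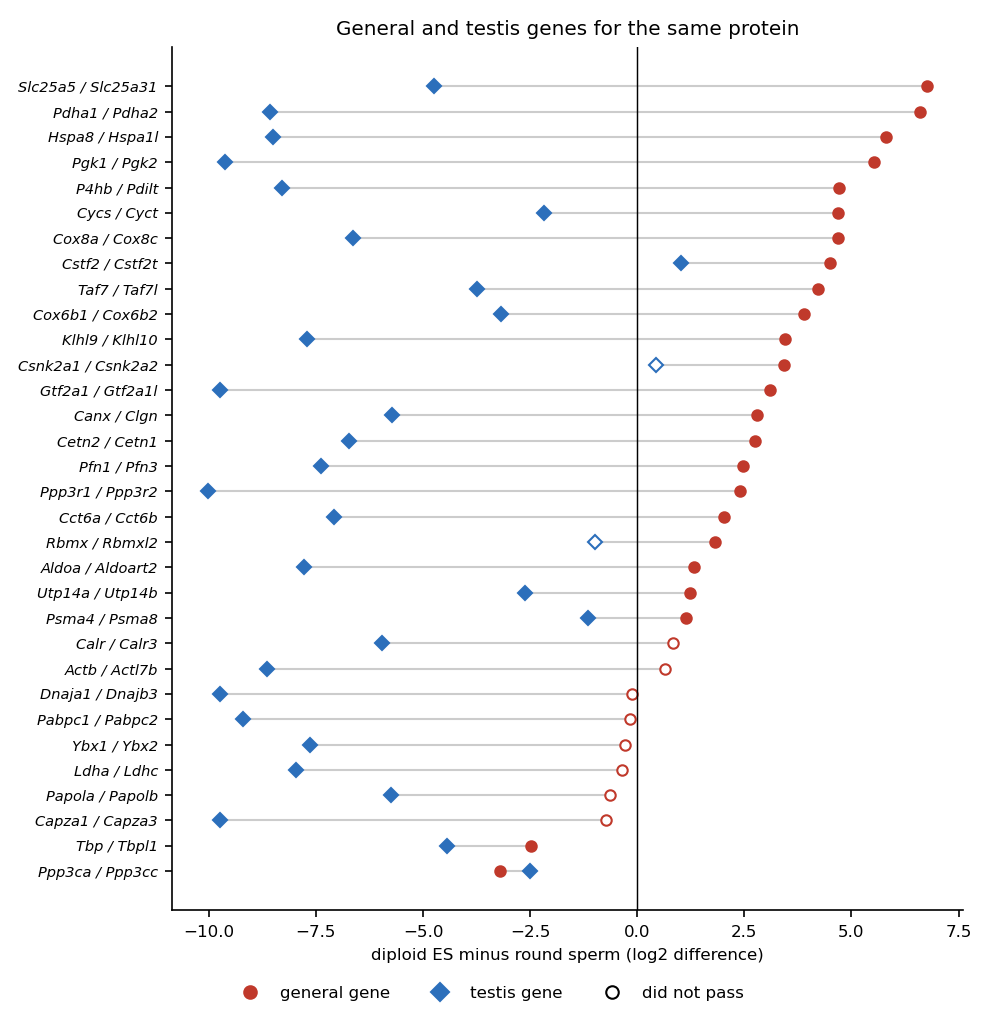
Difference in diploid ES minus round sperm (log2) for the general gene (red circles) and the testis gene (blue diamonds) of 32 pairs, ordered by the general gene; open symbols did not pass. Testis genes lie left of 0 in all but 2 pairs (Cstf2t and Csnk2a2), and general genes lie on both sides. Some pairs join looser relatives of a family.

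Energy metabolism gave several of these pairs. Pgk1, the X-linked phosphoglycerate kinase gene, had 14.0, 14.2 and 14.5 in diploid ES cells, against 8.23, 8.97 and 8.92 in round sperm (46.1-fold higher). Its autosomal retrogene Pgk2 had 3.62, 4.64 and 5.30 in diploid ES cells, against 14.0, 14.2 and 14.3 in round sperm (at least 406-fold lower). The groups were thus far apart in opposite directions. The pyruvate dehydrogenase genes Pdha1 (97.7-fold higher) and Pdha2 (at least 198-fold lower) and the ADP/ATP carrier genes Slc25a5 (109-fold higher) and Slc25a31 (27.0-fold lower) did the same, and in both pairs the general gene is X-linked. Cytochrome c followed with Cycs (25.7-fold higher) and Cyct (4.53-fold lower). In structural and signalling pairs, the profilin gene Pfn1 was 5.51-fold higher and Pfn3 at least 122-fold lower, and the calcineurin B gene Ppp3r1 was 5.25-fold higher and Ppp3r2 at least 443-fold lower. The TFIIA gene Gtf2a1 was 8.63-fold higher and its testis relative Gtf2a1l at least 421-fold lower, though another probe set of Gtf2a1 gave a difference of -1.73.

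Lactate dehydrogenase did not follow that pattern in full. Ldhc, the testis isoform, had 6.51, 7.57 and 8.50 in diploid ES cells, against 15.4, 15.5 and 15.7 in round sperm (251-fold lower, difference -7.97 ± 0.13, adjusted p = 1.08e-12). Ldha, the general isoform, had 13.9, 14.0 and 14.1 in diploid ES cells and 14.2, 14.4 and 14.5 in round sperm, a difference of -0.35 ± 0.07 (1.28-fold) that did not pass. The Ldhc window is shown because it holds the letters TGACGT, the core of the element bound by CREM and CREB, in both marked places on the gene strand; it is chr7:46861013-46861262 on the plus strand (RefSeq, GRCm38.p6).
Ldhc: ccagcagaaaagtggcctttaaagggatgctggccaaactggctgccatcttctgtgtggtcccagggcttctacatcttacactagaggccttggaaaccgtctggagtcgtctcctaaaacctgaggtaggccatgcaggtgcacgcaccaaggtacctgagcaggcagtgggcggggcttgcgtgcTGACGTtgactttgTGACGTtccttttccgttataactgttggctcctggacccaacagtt
The letters began 61 and 47 bases before the start. On either strand they were in 11% of the promoters of tested genes and in 9.06% of those of genes lower in diploid ES cells, so they were not more frequent there.

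Glycolysis genes were higher in 10 of 16 (62.5%) and lower in 2 (12.5%), beside 40.8% and 32.6% of all genes tested. Their median difference was 3.70. The glucose transporter Slc2a1 had 12.7, 13.3 and 13.7 in diploid ES cells, against 4.08, 3.42 and 3.88 in round sperm, at least 216-fold higher without overlap. Pgam1 (59.6-fold), the lactate transporter Slc16a1 (42.7-fold) and the aldolase Aldoc (18.0-fold) were higher. Hk1, a hexokinase with a known spermatid form (7.44-fold), and the phosphofructokinase Pfkm (5.51-fold) were lower in diploid ES cells. Cholesterol synthesis genes were higher in 14 of 20 (70%) and lower in 1 (5%). Msmo1 (64.6-fold) and the feedback regulator Insig1 (63.1-fold) were among the higher. The lower gene was squalene synthase, Fdft1 (3.13-fold), a call lost with the mean over its probe sets (-0.89). Subunits of oxidative phosphorylation moved less: 27 of 79 (34.2%) were higher and 7 (8.86%) were lower, with a median difference of 0.35, close to that of all genes. Their lower members include the testis forms Cox7b2 (at least 160-fold), Cox8c (99.5-fold) and Cox6b2 (9.10-fold), each a subunit of cytochrome c oxidase.

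Of 32 heat shock proteins and chaperones, 10 (31.2%) were higher and 9 (28.1%) were lower, beside 40.8% and 32.6% of all genes tested, with a median difference of 0.23 beside 0.33. Hspa8, the constitutive Hsp70, had 15.3, 15.3 and 15.4 in diploid ES cells, against 9.36, 9.74 and 9.49 in round sperm (55.8-fold higher, difference 5.80 ± 0.07). Hspa2, the Hsp70 of meiotic and later male germ cells, had 8.33, 8.54 and 8.88 in diploid ES cells, against 14.2, 14.3 and 14.2 in round sperm (51.7-fold lower, difference -5.69 ± 0.10). These 2 relatives thus had differences of similar size and opposite sign. The mitochondrial Hspd1 (70.0-fold) and the small heat shock protein gene Hspb1 (17.8-fold) were higher, and Hspb9 (at least 578-fold), Dnajb3 (at least 459-fold), Hspa1l (at least 138-fold) and Cct6b (136-fold), all known from testis, were lower. In ubiquitin-dependent turnover 13 of 25 genes were lower and 7 were higher, with the Cullin adaptor Klhl10, needed for mouse spermatid maturation (210-fold), and the ligase Rnf151 (at least 385-fold) lower. Of 37 proteasome subunits, 17 (45.9%) were higher, near the share of all genes tested, and 4 (10.8%) were lower. The lower ones include the testis subunit Psma8 (2.23-fold).

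Several lists cover the translation apparatus, to be read beside 40.8% higher and 32.6% lower of all genes tested. Cytoplasmic ribosomal proteins had 31 of 45 higher and 1 lower, with a median difference of 1.55. Rps4x, encoded on the X, led them at 15.1, 15.2 and 15.4 in diploid ES cells, against 6.08, 6.55 and 6.90 in round sperm. The ribosomal protein gene Rpl10a (28.7-fold) and the ribosomal protein-like gene Rpl7l1 (30.3-fold) were also higher. The lower gene was Rpl39l, a paralogue of Rpl39 that is known from testis, at 10.3, 11.4 and 12.3 in diploid ES cells, against 14.7, 14.6 and 14.8 in round sperm (10.2-fold lower). Nucleolar and ribosome assembly genes had 22 of 29 higher and 2 lower, among them Rrs1 (70.2-fold), the pseudouridine synthase Dkc1 (290-fold), the nucleolar Gnl3 (14.2-fold) and fibrillarin, Fbl (15.7-fold). Translation initiation factors had 24 of 46 (52.2%) higher and 4 (8.7%) lower. The 4E-binding protein gene Eif4ebp1 (28.9-fold) and the helicase cofactor Eif4b (25.2-fold) were higher, while Eif4g3, needed for meiosis in mouse spermatocytes (10.9-fold), Eif1b (4.71-fold) and Eif4e3 (at least 5.18-fold) were lower. Mitochondrial ribosomal proteins had 32 of 73 higher and 11 lower, a share of higher genes near that of all genes tested.

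Some abundant transcripts differed little. Of the 14619 genes, 1920 differed by under 0.5 on the log2 scale. The 10 of them with the highest level in their lower group include the ribosomal proteins Rps29 (15.5 in diploid ES cells and 15.3 in round sperm), Rps28 (15.3 and 14.8 in the same order) and Rpl41 (15.1 and 14.9). Among them are also the elongation factor Eef1a1, the chaperone Hsp90aa1, thymosin Tmsb10, the actin Actg1 and the glucose transporter Slc2a3, which had 14.7, 14.8 and 14.9 in diploid ES cells and 14.6, 14.5 and 14.7 in round sperm. These levels are near the top of the scale. The small differences depend on the probe set for some: without probe sets that match several transcripts or genes, Rpl41 (3.70) and Slc2a3 (1.13) passed as higher in diploid ES cells and Tmsb10 (-1.54) as lower.

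Imprinted genes, of which the copy from 1 parent is silenced by methylation set in the germline, passed in both directions. Of 18 paternally expressed genes tested, 12 (66.7%) were higher in diploid ES cells and 3 (16.7%) were lower, beside 40.8% and 32.6% of all genes tested. The median difference was 2.04 (1.56 at the bound). Plagl1, a zinc finger factor (at least 277-fold), Slc38a4, an amino acid transporter (at least 53.3-fold), Impact, a regulator of translation (50.6-fold), and Peg3, a zinc finger factor (43.1-fold), were higher. Igf2, the fetal growth factor, had 7.67, 7.83 and 7.88 in CS1-1 and 10.3, 10.1 and 10.1 in R1, against 6.88, 7.25 and 7.5 in round sperm. It was 3.45-fold higher over both lines, with R1 well above CS1-1, and it did not pass without R1 (0.59) or with the mean over its probe sets (0.75). Rasgrf1, an exchange factor (at least 19.4-fold), the Polycomb-related Sfmbt2 (2.33-fold, a call lost with the mean over its probe sets, -0.64, or without CS1-1, -0.86) and Dlk1, a Notch ligand relative, were lower; Dlk1 lay near background on the ES arrays and its ranges overlapped (at least 1.99-fold, adjusted p = 0.0265). The Dlk1 call was lost in 9 of 23 alternatives, among them leaving out the first or the third round sperm array, the second CS1-1 array or the third R1 array.

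Of 19 maternally expressed genes, 8 (42.1%) were higher and 3 (15.8%) were lower, beside 40.8% and 32.6% of all genes tested. The share of higher genes was thus near that of all genes. The median difference was 0.80 (0.14 at the bound), beside 0.33 for all genes (0.23 at the bound). The noncoding RNAs Meg3 (60.1-fold) and Rian (at least 69.9-fold), the tetraspanin Cd81 (53.1-fold) and the receptor Igf2r (22.6-fold) were higher. Asb4, of a ubiquitin ligase, was at least 70.9-fold lower, with 3.71, 5.50 and 6.07 in diploid ES cells, against 12.3, 11.8 and 11.6 in round sperm. The Cdk inhibitor gene Cdkn1c and the transporter gene Slc22a18 (3.29-fold) were the other lower members.

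The X had the highest median difference of any chromosome tested. Of 476 tested, 295 (62%) were higher in diploid ES cells and 105 (22.1%) were lower, beside 40.1% higher and 32.9% lower of the 14112 autosomal genes. The median difference was 2.01 on the X (1.64 at the bound) and 0.28 on the autosomes (0.20 at the bound), and medians of the 19 autosomes ran from -0.01 on chromosome 15 to 0.60 on chromosome 8. The gap of 1.72 between X and autosomes was 1.52 to 1.70 when each CS1-1 array was set against round sperm, and 1.89 to 1.95 for each R1 array. With each sperm array alone it was 1.74 to 1.80. Without the filter on low values the gap was 0.947, an alternative that keeps genes at background in all 3 groups. Round sperm was near background for 32.1% of X-linked and 13.5% of autosomal genes, while diploid ES cells were near background for 17.6% and 17% of them.

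Among X-linked genes higher in diploid ES cells, Ddx3x, an RNA helicase, had 13.9, 14.0 and 14.2 in diploid ES cells, against 5.76, 5.67 and 6.0 in round sperm (296-fold). Dkc1, Rps4x and Bex1, given above, were of the same order. The 105 lower X-linked genes included 75 that were near background in diploid ES cells, and among these were Akap4 and Tsga8. Tsga8, a testis gene of haploid cells, had 3.56, 4.09 and 6.10 in diploid ES cells, against 14.8, 15 and 15 in round sperm (at least 652-fold lower). So the X held genes at both ends of the scale. Xist, the RNA that silences an X in female cells, had 8.26, 8.21 and 8.15 in CS1-1 and 10.1, 10.0 and 10.1 in R1, against 6.24, 6.38 and 6.14 in round sperm (7.37-fold higher, difference 2.88 ± 0.12).

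**Figure D5:**
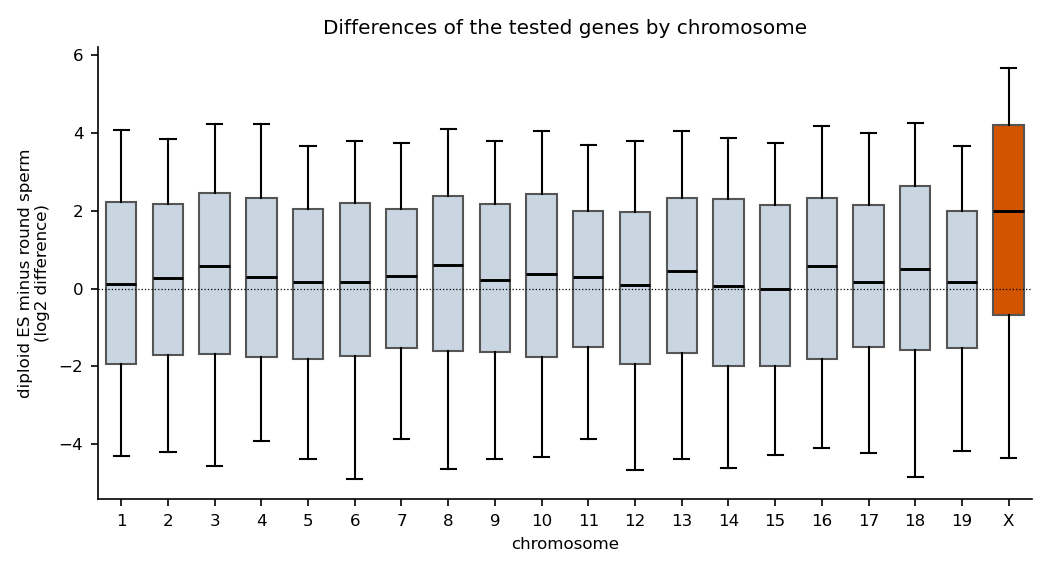
Differences in diploid ES minus round sperm (log2) of the tested genes on each autosome (grey) and on the X (orange), with the median as a bar, quartiles as the box and the 10th and 90th percentiles as whiskers. The X has a median of 2.01, and the 19 autosomes lie between -0.01 and 0.60.

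All 7 Y-linked genes tested were lower in diploid ES cells over the mean of the lines, and the lines differed in those given here. Eif2s3y, a translation factor gene, had 4.05, 4.44 and 4.21 in CS1-1 and 11.5, 11.5 and 11.4 in R1, against 10.7, 10.5 and 10.4 in round sperm. Uba1y and Uty, picked after their values were seen, likewise averaged 4.57 and 4.74 in CS1-1, where both were near background, and 9.39 and 7.63 in R1. For these genes the mean of the lines describes neither line. Without CS1-1 the difference was 0.96 in Eif2s3y and 0.077 in Uty, so their lower calls rest on CS1-1. Both calls were also lost with the line as a random block. The Uty call was lost with the mean over its probe sets (-0.001) and with a test against 2-fold. Uba1y stayed lower in all 25 alternatives, at -5.99 to -1.17.

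The ES lines lay on opposite sides of round sperm in 13 genes (0.0889% of those tested), each past the test in CS1-1 minus round sperm, in R1 minus round sperm and in CS1-1 minus R1. In 3 of them CS1-1 was the higher line. Ubd, a ubiquitin-like protein, had 9.26, 9.27 and 9.25 in CS1-1 and 3.73, 5.18 and 4.53 in R1, against 6.16, 6.18 and 6.63 in round sperm. The cell cycle regulator Rgcc and Tspo2, a translocator protein of the erythroid line, followed the same order. In the other 10 genes R1 was higher, and several belong to the extracellular matrix or contractile cytoskeleton. Postn, periostin, had 7.87, 7.92 and 7.56 in CS1-1 and 11.5, 11.5 and 11.7 in R1, against 9.43, 8.84 and 8.93 in round sperm. Tnc, tenascin C, averaged 7.2 in CS1-1 and 10.7 in R1, against 8.53 in round sperm, and the collagen gene Col6a3 and the myosin light chain gene Myl9 lay in that order too. Ifi202b, an interferon-inducible gene, averaged 4.91 in CS1-1 and 9.01 in R1, against 7.14 in round sperm. Beside this, the fibroblast marker gene Col1a2 was also higher in R1, as given above, and its part was not tested. Without the first round sperm array 21 genes met the same condition, 11 of them among the 13, and with an offset of 32 signal units 8 genes did.

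For 692 of the 6525 genes with more than 1 tested probe set (10.6%), probe sets passed in opposite directions. Over the 26040 probe sets tested, 72.2% passed, 43.2% as higher and 29% as lower in diploid ES cells. The gene with the widest gap between opposing sets was Zfand5, a zinc finger protein, with a probe set at 12.2 in diploid ES cells and 6.38 in round sperm and another at 3.99 in diploid ES cells and 9.79 in round sperm. Eif4e, the cap-binding protein, had sets with differences of 3.77 ± 0.11, 1.68 ± 0.15, 0.14 ± 0.07 and -6.34 ± 0.46. Cdyl, a chromodomain protein that acts on histones in spermatids, had sets at 5.03 ± 0.20, 5.05 ± 0.15 and -4.92 ± 0.18. These sets sit on different parts of the genes, and which transcript each reports was not tested. In 417 of the 692 genes both opposing sets were of the plain kind designed to match 1 gene.

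The promoters of the lower genes had less CpG. Over the 300-base windows, the median ratio of observed to expected CpG was 0.765 for the 4811 genes higher in diploid ES cells with a RefSeq promoter and 0.606 for 3854 lower genes. It was 0.725 for 586 genes at least 32-fold higher and 0.394 for 960 genes at least 32-fold lower. A ratio above 0.6 was found in 73.4% of the higher genes, 50.6% of the lower genes and 32.1% of those at least 32-fold lower, beside 64.7% of all tested genes. The shown sequences span this range, from Prm1 at 0.05 to Ldhc at 0.42, Tekt2 at 0.63 and Sox2 at 0.82, and they do not follow the groups, since Nanog had 0.19 and Tnp2 0.17.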

How the data were processed

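RNA of 7 groups of 3 samples was measured on Affymetrix whole-genome arrays, and the 9 arrays of CS1-1, R1 and round sperm were compared here. The deposited values are log2 MAS5 signals per probe set, per the submitters' processing notes, which name MAS5 without a version. The base of the log2 scale was inferred from the values: back-transformed, every array has a 2% trimmed mean of 500, so the authors scaled the arrays alike. Array number limits the precision.

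Of 45101 probe sets, 64 are controls, 34945 have 1 gene symbol in the platform annotation, 932 have several and 9160 have none. Where several probe sets shared a gene, the one brightest on average across the 21 arrays stood for it. An offset of 9.73, the median of the arrays' 20th percentiles, was added to the signals before taking log2. Genes were tested where all 3 arrays of at least 1 of the groups exceeded their 40th percentile. Group means were fitted with limma 3.58.1 in R 4.3.3 (trended, robust empirical Bayes), and the contrast was the mean of CS1-1 and R1 minus round sperm. The fit was tested on simulated data. Genes were named by rules on size, bounds, lists, pairs, lines and probe sets, plus a few fixed key genes. The members and lists were chosen with earlier results of these data known. Control probe sets were compared with an exact permutation test. Alternatives changed the offset, filter, scaling, probe set choice, model and arrays used.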

Additional observations from a re-analysis of the deposited data

Results flagged for a closer look

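Among the 27 sets of 6 ES arrays examined, 1 gene had an array far from the others. Pou5f1 was at 13.582 on the third R1 array, just below the other ES arrays, and chance alone picks out about 1 in 20 such sets. The rest differed between the ES lines in their difference from round sperm, given here as CS1-1 minus R1 on the log2 scale, by limma's test of that contrast. Among the key genes, Ddx4 was higher in CS1-1 (1.42), while Xist (-1.849) and the imprinted growth factor gene Igf2 (-2.402) were lower in it. The spermatid genes Prm1 (-1.226) and Acr (-1.244) also differed, though both were near background in both lines.

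The 13 genes with the lines on opposite sides of round sperm make up the remainder. Higher in CS1-1 were Ubd (4.779), Rgcc (3.303) and Tspo2 (3.057). Lower in CS1-1 were Ifi202b (-4.099), Myl9 (-3.795), Postn (-3.773), Tnc (-3.492) and the collagen gene Col6a3 (-3.269). So were Cyp1b1, a cytochrome P450 (-3.106), Twist2, a mesenchymal factor (-3.099), Kif26b, a kinesin (-2.776), the filamin gene Flnc (-2.388) and the matrix gene Fmod (-2.221).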

How the results depend on the processing

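Over 25 alternatives, 9237 to 11233 genes passed, 5235 to 6043 of them higher and 4002 to 5251 lower in diploid ES cells. Pairs with the general gene higher and the testis gene lower numbered 18 to 21. Without each array in turn these counts were 10716 to 10889, 5890 to 6039, 4738 to 4999 and 19 to 20. Members of lists that passed numbered 682 to 687 and genes with opposing probe sets 673 to 737 without each array. The X minus autosome gap was 1.953 and 1.427 with offsets of 1 and 32, 0.947 without the filter, 2.137 with a filter at the 60th percentile, 1.337 with the mean over probe sets, 1.512 with the probe set chosen by the 2 kinds of cell, 2.035 without CS1-1, and 1.644 to 1.781 without each array. Genes with the lines on opposite sides of round sperm numbered 23 and 8 with offsets of 1 and 32, 2 with a test against 2-fold, and 13 to 21 without each array. They have no value without a line or with the line as a random block, and the cause of these shifts was not tested.

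Differences changed sign by probe set choice in Aurka (0.911), Cyp1b1 (-1.074) and Odf2 (-2.557) with the mean over probe sets. With the set brightest on the average of the 2 kinds of cell, Cdyl (-4.924), Gtf2a1 (-1.731) and Odf2 (-5.478) changed sign. Without R1, Col6a3 (-1.163), Cyp1b1 (-1.53), Postn (-1.285), Rgcc (1.112), Tnc (-1.326) and Tspo2 (1.463) changed sign. Without CS1-1, Eif2s3y (0.96), Ifi202b (1.867), Kif26b (1.289), Ubd (-1.843) and Uty (0.077) did. Of 5998 values of 241 of the named genes, 5921 stayed on the same side of the threshold, and those of them that passed kept their direction. A sign change in a gene that did not pass is counted among these. A further 38 no longer passed and 22 passed only under the alternative.

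Replicate numbers did not pair the samples. Each array's deviations from its group means were compared between same-numbered arrays of different groups, and they correlated at -0.015 to 0.026. With the number as a replicate block 10725 genes passed, 5960 higher and 4765 lower. Calls were 53.4% higher after median centring and 51% after quantile normalization, against 55.6%, as the median of all genes moved to 0.214 and 0.082. Signals near background bound the fold of many genes.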
